A study of Mus musculus with 8 samples.

Results

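The genes described here belong to families named for enzymes that write or remove modifications on histones, the proteins around which DNA is wound. They were chosen by symbol: lysine methyltransferases (Kmt2, Kmt5, Setd, Suv39h, Ehmt, Ezh and Dot1l), arginine methyltransferases (Prmt), lysine acetyltransferases (Kat), lysine demethylases (Kdm), histone deacetylases (Hdac) and sirtuins (Sirt). Hdac1, Hdac2 and Hdac6 were left out. The choice gave 75 of the 17121 genes in the table, of which 40 are writers, 34 are erasers and 1, Ezhip, encodes an inhibitor and belongs to neither class. Classes follow the family, so a member need not act on histones. The erasers include the mitochondrial Sirt3, Sirt4 and Sirt5 and Kdm4dl, a locus listed as a pseudogene by RefSeq. All 75 passed the filter on low values and were tested.

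The study measured RNA from mouse testis in 8 libraries, 4 of genotype CTL and 4 of genotype N6amt1-SKO, to ask what the loss of N6amt1 does to meiotic prophase in the male germ line. N6amt1 encodes a methyltransferase that works with the activator protein Trmt112. The labels give neither an age nor a strain, do not spell out SKO or the allele behind it, and do not say whether each library is a separate animal. The p-values below therefore measure the spread between libraries, which may be technical. The protocol in the labels names heart ventricles as the extracted tissue, whereas the tissue label is testis. Libraries are called CTL 1 to 4 and SKO 1 to 4 after their labels.

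Writers attach methyl or acetyl groups to histone tails and erasers take them off, and many marks have a dedicated pair of opposing enzymes. In the testis these marks change in a fixed order as spermatogonia enter meiosis, as the sex chromosomes are silenced in spermatocytes and as histones are replaced by protamines in spermatids. The complex of N6AMT1 and TRMT112 is itself known as a histone H4 lysine methyltransferase under the name KMT9, but the symbol does not match the rule and N6amt1 is not among the 75 genes.

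The deposited values summed to between 94183701 and 103106684 per library, which reflects scaling and not depth. Steps between the values put the depth at about 40.6 M to 70.1 M counted reads in CTL 3, CTL 4 and the 4 SKO libraries. For CTL 1 and CTL 2 they put it at about 258 M and 225 M, from a weaker match (correlation 0.394 and 0.298, against 0.831 to 0.924), and these 2 estimates are less certain. N6amt1 itself was not lower in the SKO libraries: its normalised value was 513 ± 84.6 (SD, n = 4) in CTL and 582 ± 31.1 (SD, n = 4) in SKO, with a log2 fold change of 0.19 and an adjusted p of 0.437. The whole-gene value does not show whether part of the transcript is missing, so it leaves the labels unchecked. Spermatid and spermatocyte markers were abundant in all 8 libraries, as the tissue label says. The share of the summed values on 18S ribosomal RNA was 0.173% to 0.273% in CTL 1, CTL 2 and SKO 1 to 3, and 0.721% to 0.969% in CTL 3, CTL 4 and SKO 4. None of the 96 cell type marker genes in the table was at 0 in any library. The Sertoli cell markers summed to 115425 to 220592 in CTL and 216423 to 420721 in SKO, and 12 of 15 rose. The peritubular myoid markers summed to 21448 to 25591 in CTL and 37527 to 43395 in SKO, and 4 of 6 rose. The heart muscle markers, examined because of the protocol's wording, summed to 2086 to 2745 in CTL and 4184 to 6521 in SKO, and 2 of the 5 tested rose, Tnni3 (2.90-fold, adjusted p = 0.0123) and Tnnt2 (2.01-fold, adjusted p = 0.0153). For both sets all SKO sums lay above all CTL sums. The markers of spermatogonia summed to 18159 to 23112 in CTL and 29837 to 35869 in SKO, and 4 of 9 rose. The markers of pachytene and later spermatocytes summed to 480746 to 714558 in CTL and 302543 to 376211 in SKO, and 5 of 9 fell. The markers of elongating spermatids summed to 202174 to 840341 in CTL and 245817 to 657487 in SKO, and 0 of 8 passed the limma test, with 1 lower at an unadjusted p under 0.05. In whole-tissue RNA, fewer cells of a type and less RNA per cell cannot be told apart, and the part of these marker shifts in the results below was not tested.

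In SKO, 16 of the 75 genes rose and 7 fell. Among all genes tested, 11.9% rose and 7.93% fell, 19.9% in all, so the 21.3% of members that rose lay above that background and the 9.33% that fell lay close to it. Genes were called risen or fallen where the limma p, adjusted by the Benjamini-Hochberg method over all 17066 genes tested, was below 0.05. The risen genes, from the largest change down, were Hdac8, Sirt6, Ezhip, Kmt2a, Prmt3, Suv39h1, Prmt2, Ehmt1, Sirt7, Sirt2, Kdm4c, Hdac7, Prmt1, Kmt5a, Kdm3b and Kdm1b. The fallen genes were Kdm4d, Kat7, Dot1l, Kat5, Kat8, Ezh2 and Prmt7. The median log2 fold change over the 75 genes was 0.06, beside 0.04 over all genes. These counts depended on single libraries. Without CTL 4 or SKO 4, 15 members rose and 7 or 6 fell, but without CTL 1 the counts were 8 and 8, without CTL 2 they were 3 and 9, and without CTL 3 they were 3 and 1. Without SKO 1 they were 3 and 0, and without SKO 2 they were 2 and 2. Without SKO 3, 0 of the 75 genes and 0% of all genes passed the limma threshold (smallest adjusted p 0.0587 among the 75), although 18 were higher and 10 lower at an unadjusted p under 0.05. Suv39h1 and Ezhip kept their call in 7 of the 8 fits that leave out a library, Dot1l in 6 and Ezh2 in 5. Kat5, Kat8, Kdm4d, Prmt1, Prmt7 and Sirt6 kept it in 4, and Hdac8, Kmt2a, Kmt5a and Prmt3 in 3. Ehmt1, Hdac7, Kat7, Kdm1b, Kdm3b and Sirt7 kept it in 2, Kdm4c and Prmt2 in 1 and Sirt2 in 0. Without CTL 1 and CTL 2 together, 8 members rose and 16 fell, beside 10.6% and 13.7% of all genes. Scaling also moved the balance, with 12 risen and 9 fallen under median-ratio factors (9.39% and 9.71% of all genes). When values were divided by library totals 33 rose and 3 fell (28.6% and 2.67% of all genes), which moved the median over all genes from 0.04 to 0.33.

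Of the 40 writers 7 rose, 6 fell and 27 did not pass the test, and of the 34 erasers 8 rose, 1 fell and 25 did not pass, beside 11.9% risen and 7.93% fallen over all genes. This balance depended on the libraries. Without CTL 1 and CTL 2 together, 3 writers rose and 11 fell, and 4 erasers rose and 5 fell. Over all genes 10.6% rose and 13.7% fell there. With CTL 3, SKO 1, SKO 2 or SKO 3 left out in turn, 0 erasers passed the limma test in either direction. Of all genes 7.25%, 7.52%, 7.82% and 0% passed in these fits. In them 18 or 19 of the 75 members were higher and 9 or 10 lower at an unadjusted limma p under 0.05. The median log2 fold change was 0.01 for writers and 0.14 for erasers, and it was positive for both within CTL 1, CTL 2 and SKO 1 to 3, the low-18S libraries (0.23 and 0.26), and negative for both within the high-18S ones (-0.19 and -0.02). All 4 SKO libraries lay above all 4 CTL libraries for 8 writers and 9 erasers, and below them for 8 writers and 2 erasers. Over all genes such separation was found upward for 15.6% and downward for 10.6%. Library by library, the medians of the classes did not separate the groups. The median deviation of the writers from the CTL mean was -0.14, -0.19, 0.15 and 0.24 in CTL 1 to 4, against -0.07, 0.13, 0.20 and 0.03 in SKO 1 to 4, on the log2 scale. For the erasers it was -0.09, -0.17, 0.12 and 0.16 in CTL, against 0.00, 0.22, 0.17 and 0.03 in SKO. The groups overlapped for both classes, and whether writers and erasers differ in their response was not tested.

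**Figure D1:**
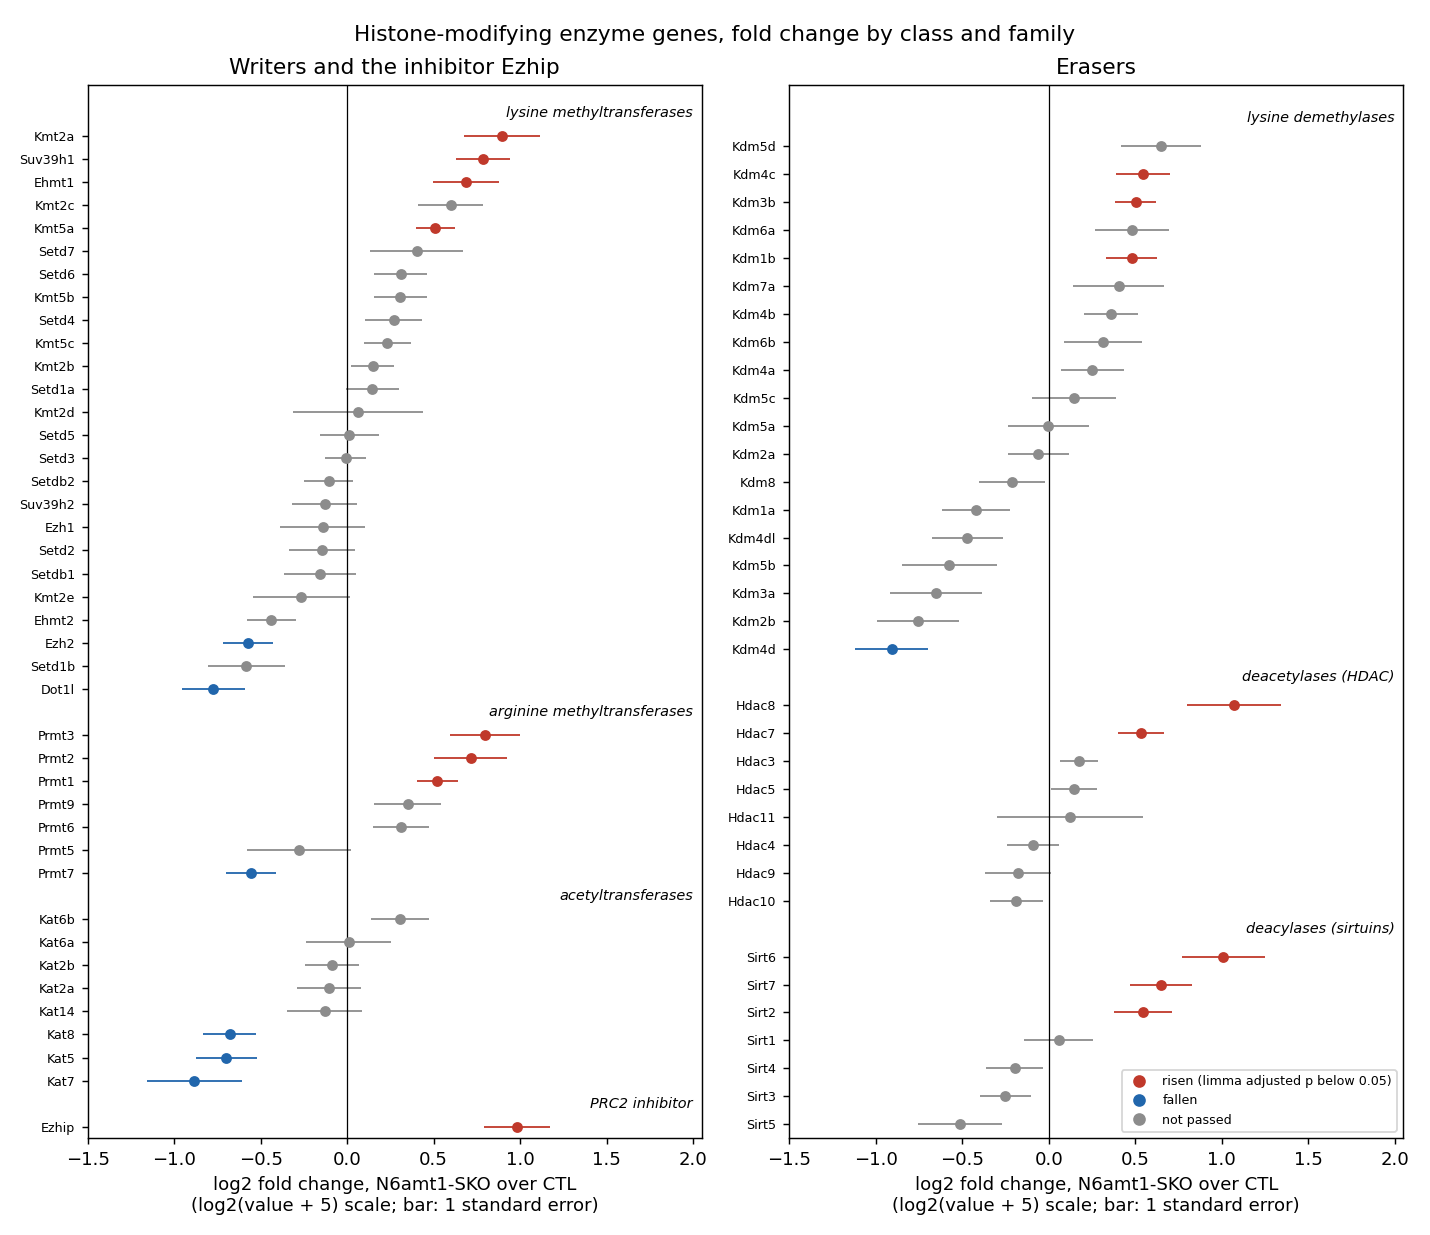
Log2 fold change of each of the 75 genes in N6amt1-SKO over CTL (x axis, log2(value + 5) scale), with writers and Ezhip on the left, erasers on the right, grouped by family; the bar is 1 standard error, and red and blue mark genes that rose or fell. Of 8 acetyltransferases 3 fell, beside 7.93% of all genes, and of 15 deacetylases and sirtuins 5 rose, beside 11.9%. Whether these classes differ was not tested, and most demethylases are grey.

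Methylation of lysine 9 of histone H3 is a mark of silent chromatin that covers the sex chromosomes in spermatocytes. Of the 6 methyltransferases for this residue 2 rose and 0 fell, beside 11.9% and 7.93% of all genes. Suv39h1, which trimethylates this residue in pericentromeric heterochromatin, had normalised values of 1800, 1467, 1608 and 1352 in CTL 1 to 4, against 2940, 2157, 2911 and 2754 in SKO 1 to 4. Every SKO library was above every CTL library, and the gene rose 1.72-fold (log2 fold change 0.78 ± 0.16 SE, adjusted p = 0.0150). Its testis-enriched relative Suv39h2 was at 3904 ± 938 (SD, n = 4) in CTL and at 3505 ± 374 (SD, n = 4) in SKO, with a log2 fold change of -0.13 and an adjusted p of 0.660. The ratio of Suv39h1 to Suv39h2 was 0.293 to 0.489 in CTL and 0.582 to 0.926 in SKO, so the groups did not overlap. Of the exon bases of Suv39h1, 14.6% overlap the antisense gene Gm14820, which is not in the table.

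Ehmt1 and Ehmt2 encode the partner enzymes GLP and G9a, which mono- and dimethylate the same lysine and are needed in meiotic prophase. Ehmt1 had 2232, 2019, 1914 and 2890 in CTL 1 to 4, against 3114, 4585, 3977 and 2956 in SKO 1 to 4. The lowest SKO library lay only just above the highest CTL library, and the gene rose 1.61-fold (adjusted p = 0.0350). Ehmt2, the member with the second highest level per length in CTL, had 58045, 57379, 68541 and 48517 in CTL 1 to 4, against 44223, 42106, 45871 and 38499 in SKO 1 to 4. All SKO libraries were below all CTL libraries, but the log2 fold change of -0.44 missed the threshold with an adjusted p of 0.0578. The ratio of Ehmt1 to Ehmt2 was 0.0279 to 0.0596 in CTL and 0.0704 to 0.109 in SKO. Setdb1, the H3K9 methyltransferase of retroelement silencing and of meiotic sex chromosome inactivation, did not pass the test, with a log2 fold change of -0.16 and an adjusted p of 0.631.

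Of the 8 demethylases of this residue 2 rose and 1 fell, beside 11.9% and 7.93% of all genes. Kdm4d, which removes methyl groups from H3K9 and is highly expressed in the testis, showed the largest fall of the 75 genes. It had 14172, 15133, 22976 and 25290 in CTL 1 to 4, against 8840, 9510, 9829 and 12138 in SKO 1 to 4. No SKO library reached the lowest CTL library, and the fold change was 1.88-fold downward (log2 fold change -0.91 ± 0.21 SE, adjusted p = 0.0209). Kdm4dl, a Kdm4d-like locus listed as a pseudogene by RefSeq, had 728.9, 525.6, 857.8 and 698.1 in CTL, against 438.3, 412.4, 558.8 and 610.6 in SKO and did not pass (adjusted p = 0.131), and the sources used here do not say how reads shared between such copies were assigned. Kdm4c, a broadly expressed relative of Kdm4d, rose 1.46-fold (adjusted p = 0.0389), and Kdm3b, which demethylates the same residue, rose 1.42-fold (adjusted p = 0.0210). Of the exon bases of Kdm3b, 24.6% overlap Gm26538 on the opposite strand, a gene not in the table. Kdm3a, a demethylase needed for protamine expression in spermatids, had 32659, 31581, 59145 and 67068 in CTL, against 22811, 30341, 28564 and 34019 in SKO. Its groups overlapped through SKO 4 and its adjusted p was 0.107. The ratio of Kdm3a to Kdm3b was 8.10 ± 2.63 (SD, n = 4) in CTL and 3.53 ± 0.571 (SD, n = 4) in SKO, and was lower in every SKO library than in any CTL library.

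The enzymes around lysine 27 of histone H3 showed a fall of the methyltransferase Ezh2 and a rise of its inhibitor. Ezh2, the main catalytic subunit of Polycomb repressive complex 2 (PRC2), had 9494, 10484, 11747 and 12629 in CTL 1 to 4, against 6813, 8770, 7565 and 6702 in SKO 1 to 4. The groups did not overlap, and the gene fell 1.49-fold (log2 fold change -0.57 ± 0.14 SE, adjusted p = 0.0264). Ezhip, which encodes a germ-cell protein that inhibits PRC2, had 430, 314.5, 323.4 and 326.2 in CTL 1 to 4, against 779.5, 573, 816.9 and 610.6 in SKO 1 to 4. Every SKO library was above every CTL library, and the gene rose 1.97-fold (log2 fold change 0.98 ± 0.19 SE, adjusted p = 0.0147). Ezh1, the alternative catalytic subunit, did not pass (log2 fold change -0.14, adjusted p = 0.715), and its sign turned positive under library totals. Of the 10 other PRC2 genes listed, such as Eed, Suz12 and Jarid2, 0 passed the limma test, beside 19.9% of all genes. At an unadjusted limma p under 0.05, 2 of the 10 were higher, as were 3706 of the 17066 genes tested. The H3K27 demethylases Kdm6a, on the X chromosome, and Kdm6b had log2 fold changes of 0.48 and 0.31 with overlapping groups (adjusted p = 0.133 and 0.344).

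Upstream sequences are shown for 4 genes whose changes were described above, a fallen and a risen gene of H3K9 methylation and a fallen and a risen gene of PRC2. They are the 150 bases before the first listed RefSeq start of each gene (assembly GRCm38.p6, minus strand for all 4), written 5′ to 3′. The CCAAT box is in capitals on either strand (CCAAT or its complement ATTGG). The Ezh2 window lies inside the gene as annotated by GENCODE, where its 5′ end is at position 47595341.
Kdm4d, chr9:14500483-14500632: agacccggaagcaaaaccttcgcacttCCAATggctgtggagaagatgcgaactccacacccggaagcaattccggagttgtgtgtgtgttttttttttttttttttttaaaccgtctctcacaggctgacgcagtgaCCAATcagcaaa
Suv39h1, chrX:8074761-8074910: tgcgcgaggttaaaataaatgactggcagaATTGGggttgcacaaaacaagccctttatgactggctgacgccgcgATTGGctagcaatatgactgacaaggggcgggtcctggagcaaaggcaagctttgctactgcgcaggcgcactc
Ezh2, chr6:47595031-47595180: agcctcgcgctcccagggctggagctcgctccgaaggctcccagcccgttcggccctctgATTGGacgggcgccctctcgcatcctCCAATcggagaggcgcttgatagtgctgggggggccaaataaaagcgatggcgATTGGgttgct
Ezhip, chrX:6083421-6083570: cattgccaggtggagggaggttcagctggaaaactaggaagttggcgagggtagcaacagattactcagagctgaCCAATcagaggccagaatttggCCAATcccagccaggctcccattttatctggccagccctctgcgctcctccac

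The CCAAT box occurs 2 times in the windows of Kdm4d, Suv39h1 and Ezhip and 3 times in that of Ezh2. A window of 250 bases upstream of the start was found for 63 of the 75 members and for 13109 of the genes tested. In that window CCAAT occurred in 46% of members, in 8 of 15 risen and 5 of 7 fallen ones, and in 36.2% of all genes with a window. The GC box GGGCGG occurred in 55.6% of members, in 11 of 15 risen and 3 of 7 fallen ones, and in 53.2% of all genes. The MYB core AACNG, not capitalised above, occurred in 8 of 15 risen and 7 of 7 fallen members and in 72.6% of all genes. These are 3 of 7 motifs searched on both strands. A match describes the letters of the window, was not tested between risen and fallen genes, and says nothing about binding.

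Among the writers of methylated lysine 4 of histone H3, a mark of active promoters and of recombination sites, 1 of 7 rose and 0 fell. The shares over all genes were 11.9% and 7.93%. Kmt2a, the MLL1 methyltransferase, had 4224, 3093, 5202 and 5780 in CTL 1 to 4, against 6451, 8214, 8606 and 10389 in SKO 1 to 4. Its groups did not overlap, and it rose 1.86-fold (log2 fold change 0.90 ± 0.22 SE, adjusted p = 0.0234). Kmt2c, a methyltransferase of enhancers, had a log2 fold change of 0.60 just outside the threshold (adjusted p = 0.0514), with SKO 1 at 8269 below CTL 4 at 8543. Kmt2b, which is needed in spermatogonia, was at 9811 ± 803 (SD, n = 4) in CTL and at 10872 ± 873 (SD, n = 4) in SKO (adjusted p = 0.419). Kmt2d varied most, with 14521, 11483, 32996 and 29316 in CTL, against 13664, 18582, 22989 and 32738 in SKO. Its log2 fold change of 0.06 had a standard error of 0.38 and turned negative under median-ratio scaling. Setd1b lay lower in all SKO libraries without passing (log2 fold change -0.58, adjusted p = 0.0875), while Setd1a, with a log2 fold change of 0.15, overlapped. The value of Setd1a is uncertain, because 51.8% of its exon bases are shared with the gene model Gm49388 on the same strand.

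Of the 6 H3K4 demethylases 1 rose and 0 fell, beside 11.9% and 7.93% of all genes. Kdm1b, the LSD2 enzyme that acts in oocyte imprinting, rose 1.39-fold, from 1442, 1365, 1422 and 1882 in CTL 1 to 4 to 2004, 2260, 2284 and 1933 in SKO 1 to 4 (adjusted p = 0.0488). CTL 4 came close to SKO 4. Of its exon bases, 9.19% are shared with Dek on the opposite strand, whose reads a library kit that does not mark strand cannot tell apart. Its paralogue Kdm1a, the LSD1 enzyme needed to maintain spermatogonia, had a log2 fold change of -0.42 (adjusted p = 0.153), and the ratio of Kdm1a to Kdm1b was 15.1 to 26.3 in CTL and 8.81 to 11.2 in SKO. Kdm5b, which removes trimethylation from promoters, had 58052, 55803, 112397 and 117314 in CTL, against 43435, 56769, 53871 and 65466 in SKO (adjusted p = 0.159). CTL 3 and CTL 4 stood well above the other 6 libraries. The X-linked Kdm5c and the Y-linked Kdm5d had log2 fold changes of 0.15 and 0.65, neither called (adjusted p = 0.699 and 0.0732).

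Of the enzymes for other lysines, Dot1l fell and Kmt5a rose. Dot1l, the H3K79 methyltransferase that acts in elongating transcription and in spermatogonial stem cells, had 56976, 60249, 89907 and 65284 in CTL 1 to 4, against 38411, 46935, 39677 and 32962 in SKO 1 to 4. All SKO libraries were lower than all CTL libraries, and it fell 1.71-fold (log2 fold change -0.77 ± 0.18 SE, adjusted p = 0.0212). Kmt5a, the H4K20 monomethyltransferase of the cell cycle, had 5898, 5216, 5866 and 5315 in CTL, against 7651, 8108, 8232 and 7749 in SKO. Both groups were tight and well apart, and it rose 1.42-fold (adjusted p = 0.0186). Kmt5b and Kmt5c, which add further methyl groups to the same residue, had log2 fold changes of 0.31 and 0.23 and did not pass. Setd2, the H3K36 methyltransferase needed for spermatid maturation, did not pass either (log2 fold change -0.14, adjusted p = 0.628). Kdm2b, an H3K36 demethylase that recruits Polycomb complexes to CpG islands, was lower in every SKO library and lay just outside the threshold (log2 fold change -0.76, adjusted p = 0.0509). Its groups were separated mainly by CTL 3 and CTL 4, at 20154 and 18815, against 10729 and 10500 in CTL 1 and CTL 2 and 7548 to 10182 in SKO.

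**Figure D2:**
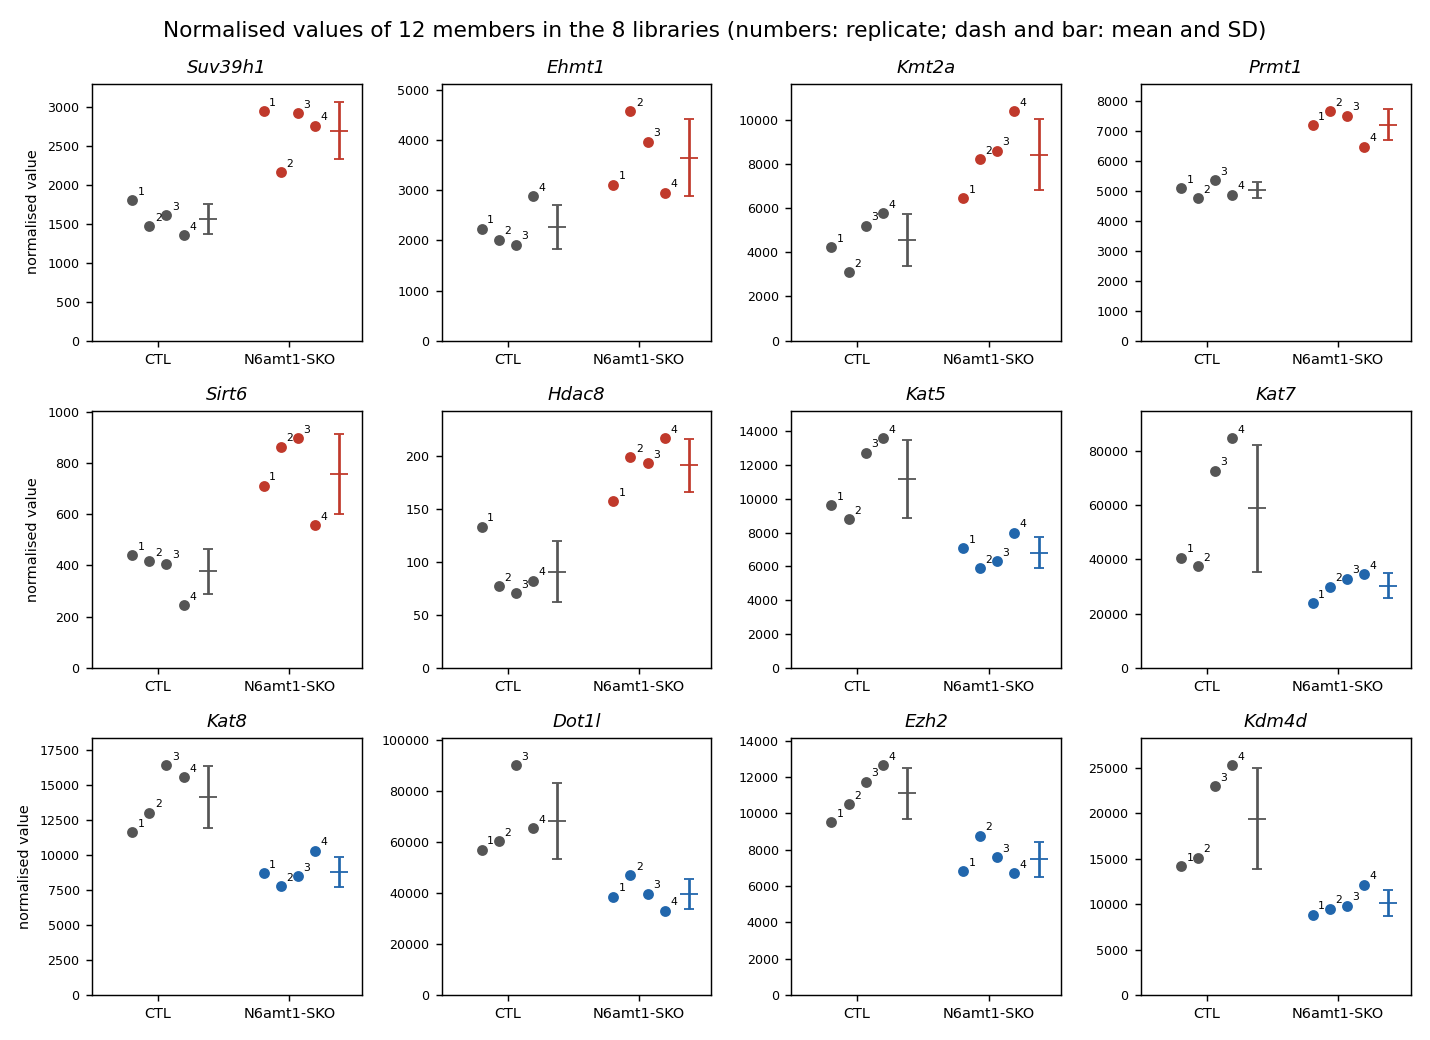
Normalised values (y axis, each panel from 0) of 12 called genes in the 4 CTL and 4 N6amt1-SKO libraries; numbers give the replicate, the dash the mean and the bar the SD. In each panel the SKO points lie on one side of the CTL points, as for Suv39h1 (2157 to 2940 against 1352 to 1800) and Kat7 (23852 to 34625 against 37415 to 84784), where CTL 3 and CTL 4 stand far above CTL 1 and CTL 2.

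The arginine methyltransferases had the highest share of calls among the writers. Of 7 genes 3 rose and 1 fell, beside 11.9% and 7.93% of all genes, and the median log2 fold change was 0.35. Prmt1 and Prmt7 kept their call in 4 of the 8 fits that leave out a library, Prmt3 in 3 and Prmt2 in 1. Prmt1, which makes most asymmetric dimethylarginine and marks H4R3, had 5089, 4755, 5345 and 4862 in CTL 1 to 4, against 7190, 7654, 7506 and 6471 in SKO 1 to 4. The groups did not overlap, and it rose 1.44-fold (log2 fold change 0.52 ± 0.12 SE, adjusted p = 0.0193). Prmt3, whose known substrate is a ribosomal protein, rose 1.74-fold (adjusted p = 0.0265). Prmt2 rose 1.64-fold (adjusted p = 0.0425), with 1115 in SKO 4 close to the highest CTL value of 1062 and 1747 to 2330 in the other SKO libraries. Prmt7, which monomethylates arginine and is the most abundant member of the family, had 19659, 20283, 26490 and 23053 in CTL, against 14589, 14082, 14425 and 17663 in SKO. It fell 1.47-fold (adjusted p = 0.0284). Prmt5, the symmetric dimethylating enzyme needed for germ cell survival, did not pass (log2 fold change -0.28, adjusted p = 0.535). Its sign turned positive under library totals. Prmt6, which methylates histone H3, had a log2 fold change of 0.31 and an adjusted p of 0.194, and 23.4% of its exon bases overlap an antisense gene.

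Of the 8 lysine acetyltransferases 3 fell and 0 rose, beside 7.93% and 11.9% of all genes. The 3 were among the 25 members with the highest level per length. In that range of level 17.8% of all genes fell and 7.2% rose. The family's median log2 fold change was -0.12, but it was 0.07 within the low-18S libraries and -0.53 within the high-18S ones. All 3 belong to the MYST group of acetyltransferases, as do Kat6a and Kat6b, which did not pass. Kat5 (TIP60), which acetylates H4 and H2A in chromatin remodelling in spermatids, had 9618, 8801, 12724 and 13585 in CTL 1 to 4, against 7085, 5878, 6315 and 7992 in SKO 1 to 4. It fell 1.62-fold without overlap (log2 fold change -0.70 ± 0.18 SE, adjusted p = 0.0261), and 12.1% of its exonic sequence is shared with Rnaseh2c on the other strand. Kat8 (MOF), the H4K16 acetyltransferase, had 11637, 13024, 16404 and 15584 in CTL, against 8689, 7783, 8480 and 10296 in SKO. It fell 1.60-fold without overlap (log2 fold change -0.68 ± 0.15 SE, adjusted p = 0.0196). Kat7 (HBO1), which acetylates H3K14 and H4 at replication origins, had 40642, 37415, 72869 and 84784 in CTL, against 23852, 29880, 32916 and 34625 in SKO. It fell 1.84-fold close to the threshold (adjusted p = 0.0490). Within the 5 libraries with a low 18S share the fall of Kat7 was smaller (log2 fold change -0.45, adjusted p = 0.0561), whereas those of Kat5 and Kat8 were -0.52 and -0.57 and passed (adjusted p = 0.0272 and 0.0180). The 5 acetyltransferases that did not pass, Kat2a, Kat2b, Kat6a, Kat6b and Kat14, had log2 fold changes from -0.13 to 0.31.

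Of the 15 deacetylases and sirtuins 5 rose and 0 fell, beside 11.9% and 7.93% of all genes, with a median log2 fold change of 0.12. Of the 5, Hdac8, Hdac7, Sirt6 and Sirt7 were among the 25 members with the lowest level per length, and none of the 5 passed when SKO 1, SKO 2, SKO 3 or CTL 3 was left out. Hdac8, an X-linked class I deacetylase that also acts on cohesin, was the least abundant member and showed the largest rise. It had 133.2, 77.3, 70.3 and 82.1 in CTL 1 to 4, against 157.2, 199.2, 193.1 and 216.9 in SKO 1 to 4, a rise of 2.10-fold (log2 fold change 1.07 ± 0.27 SE, adjusted p = 0.0264). CTL 1 lay nearest the SKO libraries. The steps between values put its reads at about 40 in CTL 4 and 332 in CTL 1. Hdac7, a class IIa deacetylase, had 694 to 773 in CTL and 1023 to 1112 in SKO and rose 1.45-fold (adjusted p = 0.0236). Hdac3, the catalytic subunit of the NCoR and SMRT complexes, was slightly above CTL in all 4 SKO libraries (7379 to 8250 against 6533 to 7153) but did not pass, with a log2 fold change of 0.18 and an adjusted p of 0.278. Hdac5, a class IIa enzyme like Hdac7, had a log2 fold change of 0.15 with overlapping groups. Hdac11 ranged from 410 to 1528 in CTL alone, and its log2 fold change of 0.12 turned negative in the low-18S libraries.

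Sirt6, a nuclear deacylase that acts at telomeres and on H3K9 acetylation, had 439, 415, 406 and 245 in CTL 1 to 4, against 710, 863, 896 and 557 in SKO 1 to 4. The groups did not overlap, and it rose 2.01-fold (log2 fold change 1.01 ± 0.24 SE, adjusted p = 0.0221). Sirt7, the nucleolar sirtuin, rose 1.57-fold (adjusted p = 0.0340). Sirt2, which is mainly cytoplasmic and deacetylates tubulin as well as H4K16, rose 1.46-fold with a value in CTL 4 (9503) well below the other 3 CTL libraries (12885 to 13646). Its adjusted p was 0.0453, and of the 23 called members it was the only 1 to lose its call in all 8 fits that leave out a library. Sirt1 had a log2 fold change of 0.06, and the mitochondrial Sirt3, Sirt4 and Sirt5 had -0.25, -0.20 and -0.51, none of which passed.

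The called members changed in a way that followed their level. Ranked by mean normalised value per 1000 exon bases, 9 of the 25 lowest members rose and 0 fell, 4 of the 25 in the middle rose and 0 fell, and of the 25 highest 3 rose and 7 fell. Over all genes in the same ranges of level, 13.6% rose and 2.65% fell in the lowest range, 15.8% and 5.18% in the middle and 7.2% and 17.8% in the highest. The median log2 fold changes of the members were 0.40, 0.01 and -0.28, beside 0.25, 0.07 and -0.24 for all genes in those ranges. Per 1000 exon bases, the CTL level was 10644 for Kat7, 10589 for Ehmt2, 7824 for Dot1l and 6778 for Kdm4d, the 4 highest of the 75, and 18.8 for Hdac8, the lowest.

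**Figure D3:**
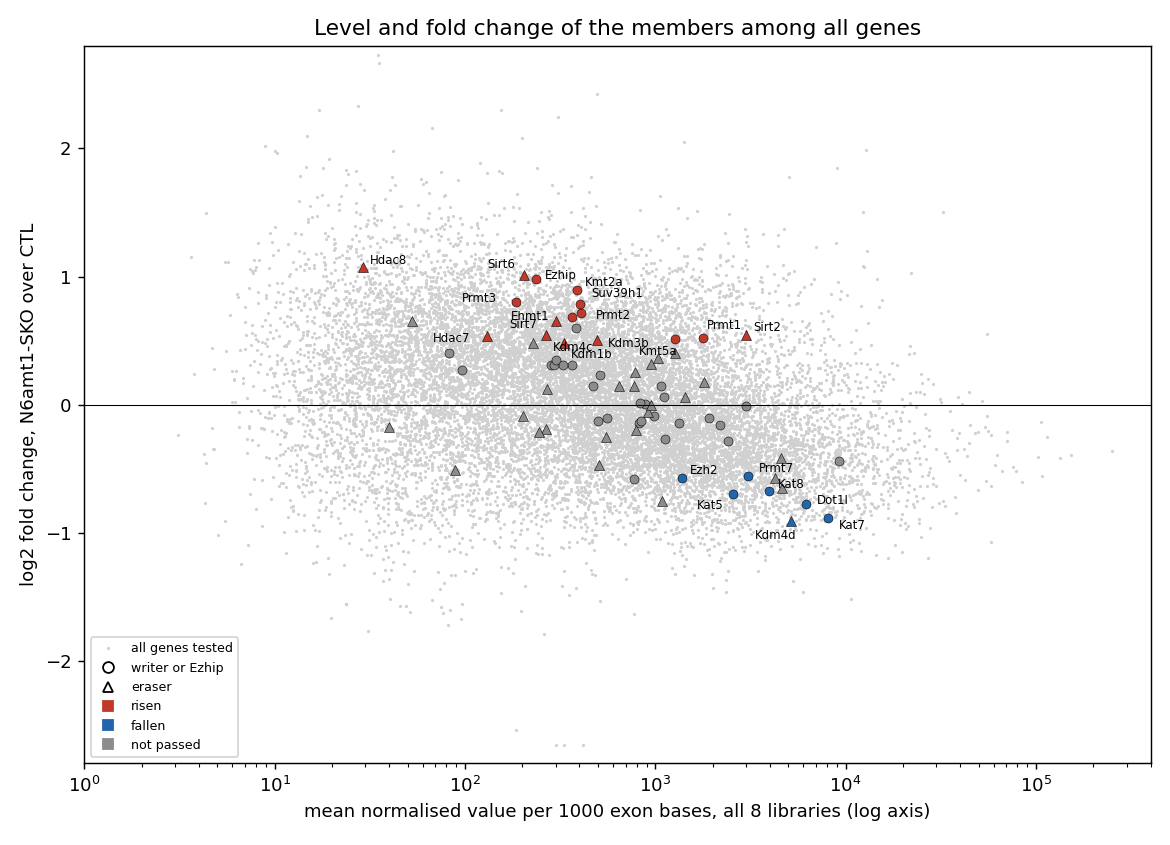
Mean normalised value per 1000 exon bases over the 8 libraries (x axis, log scale) against log2 fold change (y axis) for all genes tested (grey dots) and the 75 members (circles for writers and Ezhip, triangles for erasers; red risen, blue fallen, dark grey neither). The 7 fallen members lie among the 25 highest levels and 9 of the 16 risen members among the 25 lowest.

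The CTL libraries differed among themselves in many members. In 43 of the 75 genes (57.3%) both CTL 3 and CTL 4 lay above both CTL 1 and CTL 2, as was so for 33.5% of all genes, and the median log2 difference was 0.31, beside 0.00 over all genes. CTL 3 and CTL 4 also had the higher 18S shares, and their sums of elongating spermatid markers were 441938 and 202174, below the 714639 and 840341 of CTL 1 and CTL 2. The members have a median of 5973 exon bases, against 3987 over all genes. Within the 5 libraries with a low 18S share the median log2 fold change of the members was 0.26, and within the 3 with a high share, where SKO has 1 library, it was -0.05. Within the low-18S libraries 23 members rose and 6 fell, beside 18.8% and 13.4% of all genes. Of the 23 called members 18 also passed within the low-18S libraries, and Ezh2, Kat7, Kdm4c, Sirt2 and Hdac8 did not (adjusted p from 0.0561 to 0.0911). With the 18S set as a term in the model 18 rose and 10 fell, beside 16.4% and 12.9% of all genes. All 23 called members kept their sign in both fits and in each of the 22 alternatives in which they were tested.

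**Figure D4:**
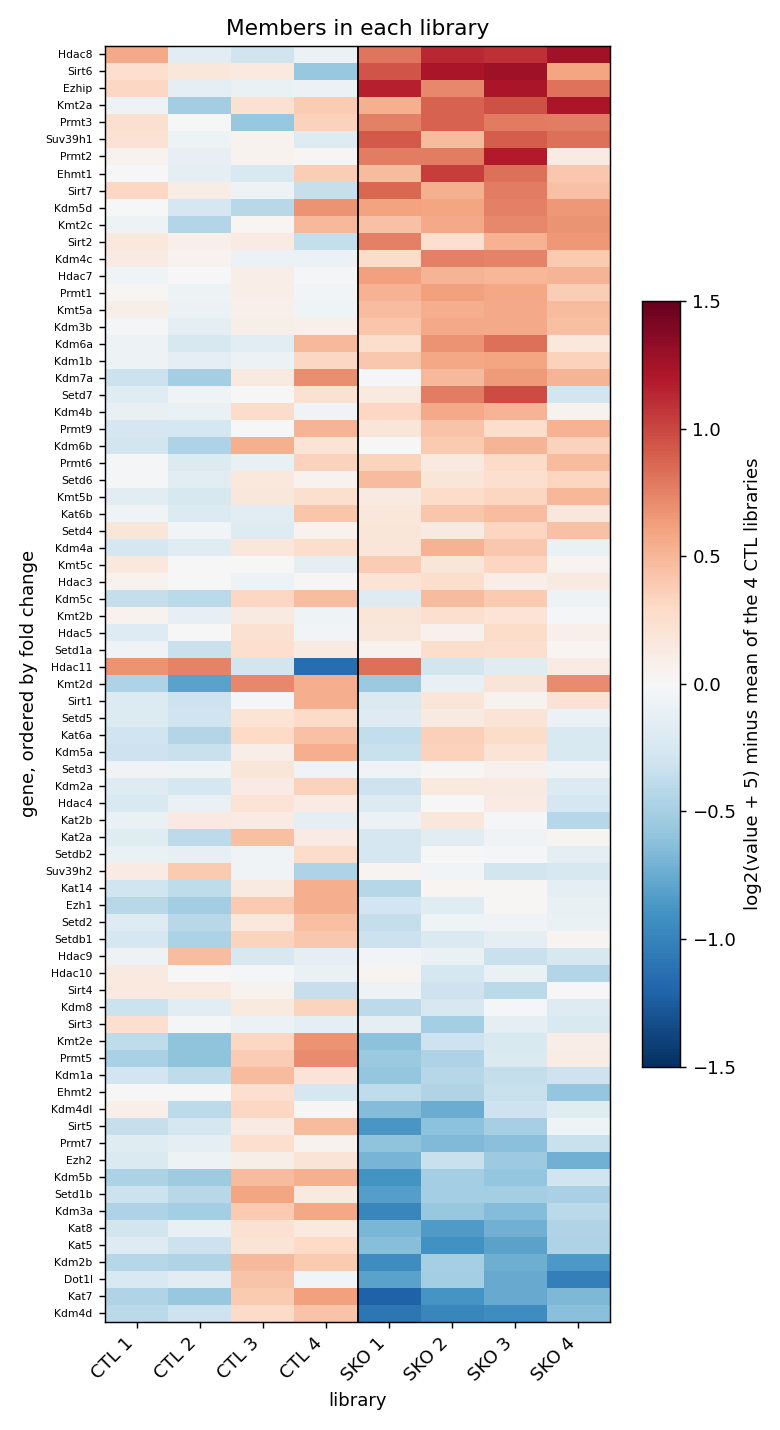
Each of the 75 genes (rows, ordered by fold change) in each library (columns), coloured by log2(value + 5) minus the mean of the 4 CTL libraries. The rows at the top are red and those at the bottom blue in all 4 SKO columns, and many rows in the middle and lower part are blue in CTL 1 and CTL 2 and red in CTL 3 and CTL 4.

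All 5 X-linked members had positive log2 fold changes, as did 52.5% of all genes, and 3 of them rose. The risen ones were Hdac8, Ezhip and Suv39h1, and the others were Kdm6a and Kdm5c, whose log2 fold change of 0.15 turned negative in the libraries with a high 18S share (-0.45). Their median was 0.78. Of the 721 X-linked genes tested in all, 29.5% rose and 0.832% fell, so that rises were more frequent on this chromosome in general than over the 11.9% of all genes.

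The ratios between related enzyme genes within a library, which do not depend on the scaling between libraries, did not overlap between the groups for 7 of 17 pairs. No share over other gene pairs was computed, and single genes separated the groups for 15.6% upward and 10.6% downward, so this count is a description only. The ratios Suv39h1 to Suv39h2, Ehmt1 to Ehmt2, Setd1a to Setd1b, Kdm2a to Kdm2b and Kdm4a to Kdm4d were higher in every SKO library than in any CTL library. Those of Kdm1a to Kdm1b and Kdm3a to Kdm3b were lower in every SKO library. The ratio of Kdm4a to Kdm4d, 2 demethylases of H3K9, went from 0.218 ± 0.0250 (SD, n = 4) in CTL to 0.499 ± 0.130 (SD, n = 4) in SKO. Setd1b and Kdm2b, whose own falls did not pass the test, were each lower relative to their paralogue in all 4 SKO libraries. Both genes were by themselves lower in every SKO library, so these ratios reuse the same values and add no separate support. The ratio of Setd1a to Setd1b also carries the uncertainty of the Setd1a value given above. The ratio of Ezh1 to Ezh2 was 0.415 to 0.722 in CTL and 0.629 to 0.861 in SKO and overlapped. The ratio of Kmt5b to Kmt5c, 2.59 ± 0.609 (SD, n = 4) in CTL and 2.72 ± 0.564 (SD, n = 4) in SKO, differed by less than its spread.

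**Figure D5:**
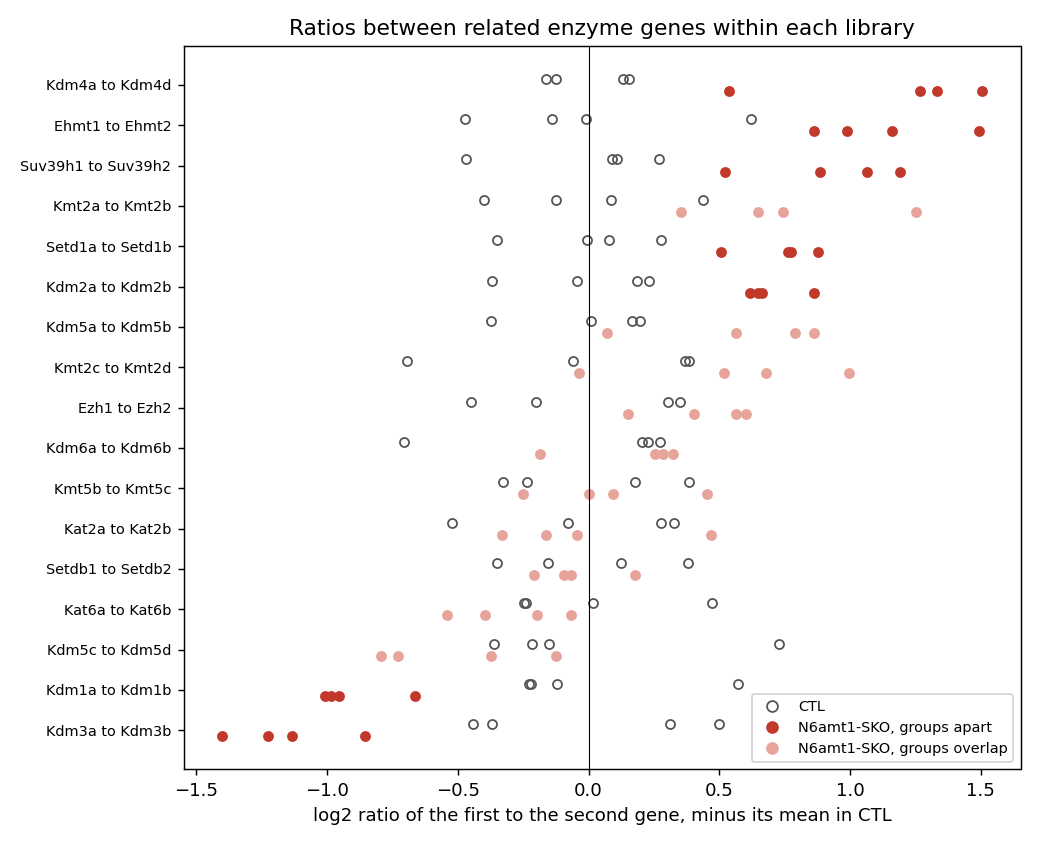
Log2 ratio of the first to the second gene of 17 related pairs in each library, minus the mean of that ratio in CTL (x axis); open circles are CTL and filled circles N6amt1-SKO libraries, dark red where the groups do not overlap. In 5 pairs all SKO points lie right of all CTL points and in 2 pairs left of them.

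The partner genes are given as counts, to be read beside the 11.9% of all genes that rose and the 7.93% that fell. Of 10 partners in the COMPASS complexes, which carry the Kmt2 and Setd1 enzymes, 1 passed: Ash2l fell 1.39-fold. Of 21 partners in deacetylase complexes, Sin3b and Rcor2 rose (1.44-fold and 1.46-fold) and Rcor3 fell 1.73-fold. Of 22 partners in acetyltransferase complexes, Tada2a and Jade3 rose (1.84-fold and 1.72-fold) and Ep400, the remodelling subunit that works with Kat5, fell 1.86-fold together with Tada2b (1.37-fold). Of 23 further writers tested that the rule did not cover, Smyd5 rose 1.65-fold, and Smyd1 and Nsd2 fell (1.58-fold and 1.39-fold). Prdm9, the H3K4 methyltransferase that places meiotic recombination, did not pass (log2 fold change 0.75, adjusted p = 0.0879). Of 8 further erasers, Riox1 rose 1.61-fold and Phf2 fell 1.46-fold. Of 27 reader genes 7 rose, among them Zmynd8 (1.71-fold), and 1 fell, Brdt (1.51-fold), the testis bromodomain protein that binds acetylated H4 in spermatocytes and spermatids.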

How the data were processed

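RNA was measured by sequencing in 8 mouse testis libraries. The submitters' processing notes name featureCounts 1.5.0-p3, HISAT2 2.0.5, fastp and CASAVA and the build mm10. The authors deposited 1 table of whole numbers per gene, treated here as a score: they resemble counts rescaled within each library and then rounded, since in SKO 4 56.9% of small whole numbers never occur. The rescaling was not given in the sources used here. Steps between the values gave an approximate depth, but in CTL 1 and CTL 2 a unit holds more than 1 read, so whole reads could not be recovered and no count model was used.

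Values were scaled by trimmed means of log ratios, and genes with at least 25 in at least 4 libraries were tested on log2(value + 5) with limma 3.58.1 (R 4.3.3; two-sided, variances following the mean, Benjamini-Hochberg over all genes). Fold changes are on that scale and understate changes of low genes. The code was tested on simulated data. Exon lengths came from GENCODE, promoters from RefSeq.

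Members and lists were chosen with earlier results of these data known. Genes were named if called, among the 2 most abundant of a family, known in germ cells, nearest the threshold, or among the largest changes of a list. Replicate numbers do not pair the groups (same-number correlations 0.012 to 0.673, with pairs 2 and 3 under 0.1). Alternatives covered scaling, added constant, filter, variance model, the 18S set, depth and single libraries.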

Additional observations from a re-analysis of the deposited data

Results flagged for a closer look

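In 88 groups of 4 libraries examined, 5 held a library that stood far from the other 3, and chance alone flags about 1 in 20. Ezhip was 430 in CTL 1, with the nearest CTL library at 326.2. Hdac7 was 1111.8 in SKO 1, with the nearest SKO library at 1037.2. Kdm1b was 1882 in CTL 4, with the nearest at 1441.5. Prmt7 was 17662.7 in SKO 4, with the nearest at 14588.6. Setd2 was 11569.2 in SKO 1, below the nearest at 13812.4. For Ezhip, Kdm1b and Prmt7 the distant library lay toward the other group, and for Hdac7 away from it.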

How the results depend on the processing

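Depth is known only approximately, and 4 libraries a group limit the precision. Leaving out 1 library in turn gave 0 to 15 risen and 0 to 9 fallen members. Among them were 0 to 7 risen and 0 to 7 fallen writers and 0 to 7 risen and 0 to 2 fallen erasers. Over all genes the same fits gave 0% to 14.4% risen and 0% to 8.95% fallen. The cause was not tested. The counts by setting, given as risen and fallen members, then writers, then erasers, were as follows. Library totals gave 33 and 3, 17 and 2, and 15 risen erasers (28.6% and 2.67% of all genes rose and fell). Array weights gave 35 and 12, 17 and 8, and 17 and 4, beside 31.2% risen and 27.5% fallen over all genes. For the 3 high-18S libraries no counts are given, because SKO has 1 library there. The median log2 fold change in them was -0.05 for members, -0.19 for writers and -0.02 for erasers. Without CTL 1 and CTL 2, the deepest by estimate, the counts were 8 and 16, 3 and 11, and 4 and 5 (10.6% and 13.7% of all genes). The 5 low-18S libraries gave 11 risen writers, beside 18.8% of all genes. Median-ratio factors gave 5 risen and 2 fallen erasers (9.39% and 9.71% of all genes). Fallen erasers numbered 2 with an added constant of 50 or a filter of 200, and 3 with the 18S term. Of all genes 8.02%, 9.80% and 12.9% fell in these settings. The replicate number as a block gave 13 risen and 9 fallen members (12.7% and 9.97% of all genes), with 5 risen and 3 fallen erasers. Replicate numbers do not pair the groups.

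The writers' median minus that of all genes was -0.03 and became 0.18 with array weights, 0.21 in the low-18S libraries and -0.25 in the high-18S ones. With 1 library left out it ranged from -0.14 to 0.11. The erasers' was 0.09 and became 0.26 with array weights, -0.088 in the high-18S libraries and -0.16 without CTL 1 and CTL 2, with a range of -0.016 to 0.17 with 1 left out.

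Genes not called changed sign, with log2 fold changes as follows. Ezh1 was 0.15 by library totals, 0.31 by array weights, 0.32 in low-18S libraries, and -0.36 to 0.0078 with 1 library left out (positive without CTL 4). Hdac11 was -0.64 by array weights, -0.079 with the 18S term, -0.59 in low-18S libraries, and -0.29 to 0.33 with 1 left out (negative without CTL 3, CTL 4 or SKO 1). Kdm5c was -0.45 in high-18S libraries, -0.29 without CTL 1 and CTL 2, and -0.034 to 0.27 with 1 left out (negative without CTL 1 or CTL 2). Kmt2b was -0.050 in high-18S libraries. Kmt2d was -0.0055 by median-ratio factors, -0.62 without CTL 1 and CTL 2, and -0.25 to 0.27 with 1 left out (negative without CTL 1, CTL 2 or SKO 4). Prmt5 was 0.0105 by library totals, 0.16 by array weights and 0.13 in low-18S libraries. By those settings in turn Setd2 was 0.15, 0.12 and 0.14, and Setdb1 was 0.14, 0.12 and 0.14. Sirt1 was -0.0078 by median-ratio factors, -0.024 in high-18S libraries, -0.25 without CTL 1 and CTL 2, and -0.089 to 0.21 with 1 left out (negative without CTL 1, CTL 2 or CTL 3). Suv39h2 was 0.16 by library totals, 0.042 in high-18S libraries and 0.081 without CTL 1 and CTL 2.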
